A study of Saccharomyces cerevisiae with 8 samples.

Results

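The genes described here are 9 regulators of the protein kinase A (PKA) pathway and of stress transcription in budding yeast: the PKA catalytic subunits TPK2 and TPK3, the PKA regulatory subunit BCY1, the kinases YAK1 and RIM15, and the transcription factors MSN2, MSN4, GIS1 and HSF1. They were taken by name from the deposited read count table, in which each of the 9 matched 1 row of 6596, and all 9 were among the 6558 gene models that passed a filter on low counts. Libraries of poly(A) RNA came from 4 samples of a wild-type strain (WT) and from 4 of mcd1-1, each lettered A, B, C or D. Both groups are derivatives of W303-1a, a haploid laboratory strain, grown overnight in YPD (rich medium with glucose), diluted to an optical density of 0.2 and grown for 2 generations at 31 °C to logarithmic phase. The mcd1-1 strain carries a mutant, temperature-sensitive allele of MCD1, the gene for the kleisin subunit of cohesin, and WT carries no listed mutation. The comparison asks which mRNAs differ between mcd1-1 and WT at that temperature.

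PKA is active when glucose is plentiful: Ras and a G protein raise cyclic AMP, which binds Bcy1 and frees catalytic subunits such as Tpk2 and Tpk3. Active PKA keeps the zinc-finger factors Msn2 and Msn4 out of the nucleus and restrains the kinases Rim15 and Yak1. When PKA activity falls, Rim15 acts through Igo1, Igo2 and protein phosphatase 2A on Gis1 and on entry into quiescence, Yak1 opposes growth, and Msn2 and Msn4 bind the stress response element. Hsf1 is an essential factor that drives chaperone genes. Most of this control is exerted on the proteins and on their location in the cell, which poly(A) RNA does not measure.

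Library totals were 22331070 to 58506447 counts, and the 9 genes together held 21922 to 105210 of them, so counting error is small beside the spread between libraries. Levels are given as counts per 1e+06 counts (CPM) after scaling by TMM, a method that sets library scale from the bulk of the genes. In both groups libraries A and B stood apart from C and D: chi-square per degree of freedom between the counts of 2 replicates was 11.8 to 101 within these sets and 315 to 540 across them. The labels name no batch and do not tell if each replicate was its own culture; p-values therefore reflect only how these samples spread, and each gene's change is also given within A and B and within C and D. MCD1 was at 75 to 87.2 CPM in WT and at 286 to 378 CPM in mcd1-1, but the mutant allele's reads are counted there too, so this checks no label. In RNA from whole cultures, a change in the share of cells that make an mRNA and a change in its amount per cell cannot be told apart.

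Of the 9 regulators, RIM15, YAK1, GIS1 and HSF1 were higher in mcd1-1 at an adjusted p under 0.05 in edgeR's quasi-likelihood test, and none was called lower. That is 4 of 9 called higher, where 20.7% of all genes tested were called higher and 19.7% lower. At an unadjusted p under 0.05 edgeR had the same 4 higher genes and 1 lower, TPK3, and the count over all genes at that threshold is not given here. DESeq2 called 4 higher and 1 lower, beside 1522 higher and 1559 lower of all 6558 genes. For limma-voom the counts were 4 and 0, beside 1365 and 1296 of all genes. Without WT A, WT B or mcd1-1 B the count of higher genes was 2, RIM15 and HSF1. Over all genes those fits called 1226 of 6566, 1163 of 6567 and 1207 of 6560 higher. RIM15 rose most, 2.42-fold, and the other rises were 1.44-fold to 1.58-fold. In 5 of the 9 genes, these 4 and BCY1, every mcd1-1 library exceeded every WT library, which was so for 22.1% of all genes. In none was the reverse true, which it was for 21.0% of all genes. The median log2 fold change of the 9 was 0.33, beside -0.01 over all genes. The edgeR calls above rest on a fit with group alone, which takes account of neither letter nor lettered set. With the lettered sets as a block, 5 of the 9 were called higher, MSN4 being added, and 1 lower, TPK3. That fit called 2207 of 6558 genes higher and 2241 lower.

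**Figure D1:**
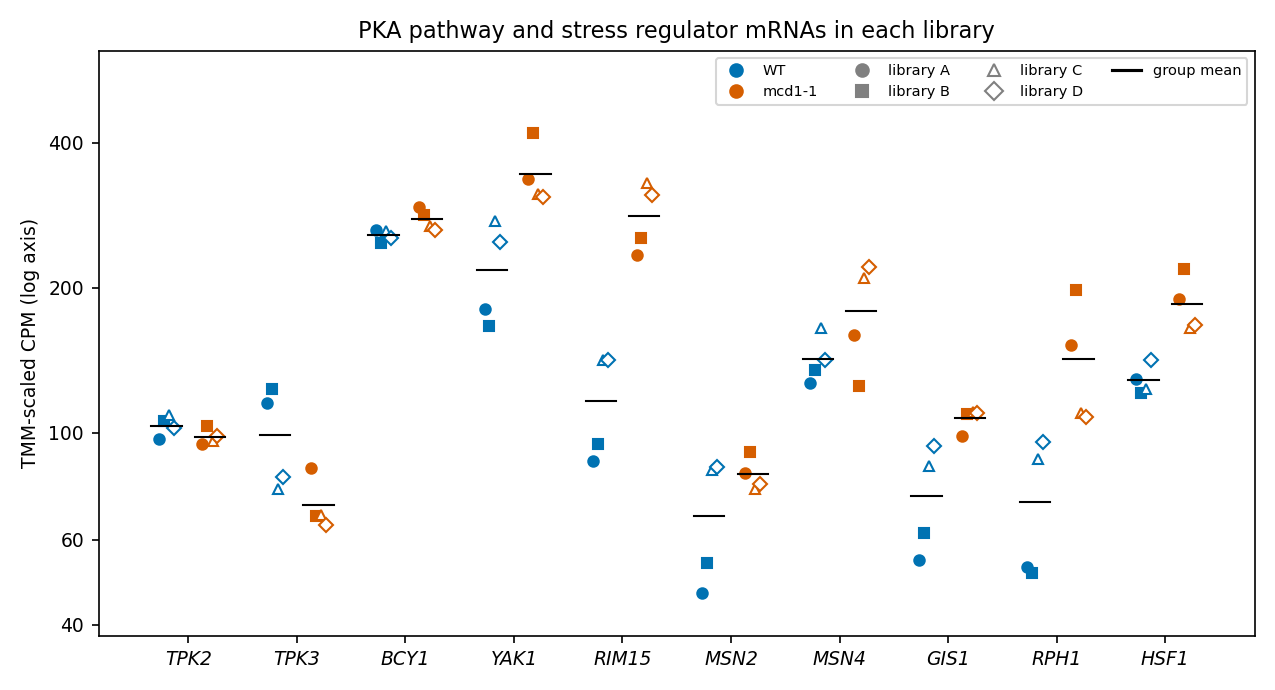
TMM-scaled CPM (log axis) of the 9 regulators and of RPH1 in each of the 4 WT and 4 mcd1-1 libraries, with filled symbols for A and B, open symbols for C and D and lines for the group means. RIM15 libraries separate widely (87.5 to 142 CPM in WT and 234 to 330 CPM in mcd1-1) and TPK2 libraries do not separate. In WT, A and B lie below C and D for RIM15, GIS1, YAK1, MSN2, MSN4 and RPH1 and above them for TPK3.

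TPK2 and TPK3 encode partly redundant catalytic subunits of PKA. TPK2 stood at 97.2, 106, 109 and 102 CPM in WT (in the order A to D) and at 94.7, 104, 96.4 and 98.5 CPM in the mcd1-1 libraries in the same order. The groups overlapped, and the log2 fold change was -0.07 ± 0.11 (SE; a value and its ± given with no unit, here and below, is a log2 fold change with its SE), edgeR adjusted p = 0.611. It was -0.034 within A and B and -0.076 within C and D. TPK2 had the smallest change of the 9, and it turned positive with upper-quartile factors (0.063) and with library size alone (0.27).

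TPK3 was at 115, 123, 76.7 and 80.9 CPM in WT (in the order A to D) and at 84.8, 67.3, 67.6 and 64.4 CPM in the mcd1-1 libraries in the same order. It was lower in mcd1-1 for each of the 4 letters, but mcd1-1 A lay above WT C and D, so the groups overlapped. TPK3 was not called in the test with group alone (-0.48 ± 0.19, edgeR adjusted p = 0.0652). When the replicate letter was a block, it was called lower (-0.46 ± 0.13, edgeR adjusted p = 0.0194), in a fit that called 29.4% of all genes higher and 30.2% lower. Within A and B the log2 fold change was -0.65 (edgeR adjusted p = 0.00192) and within C and D it was -0.22 (edgeR adjusted p = 0.0058), and whether these differ was not tested. The fit within A and B called 2287 of 6572 genes higher and 2164 lower. That within C and D called 2549 of 6564 genes higher and 2436 lower, so a call within a set is common.

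The log2 ratio of TPK3 to TPK2 per kb of gene model was 0.18, 0.16, -0.57 and -0.40 in WT (in the order A to D) and -0.23, -0.69, -0.58 and -0.68 in mcd1-1 in the same order. TPK3 mRNA thus exceeded TPK2 mRNA per kb in WT A and B, whereas TPK2 was the more abundant in the other 6 libraries. The group means were -0.16 ± 0.38 (SD, n = 4) in WT and -0.54 ± 0.22 in mcd1-1, a difference of -0.38 that a 2-sided exact permutation test over libraries did not call (p = 0.171, adjusted p = 0.305 over 4 ratios; the smallest p possible is 0.0286).

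BCY1 encodes the regulatory subunit that holds the catalytic subunits inactive. It was the most abundant of the 9 per kb of gene model in every library, and in CPM it was at 264, 248, 262 and 253 CPM in WT (in the order A to D) and 294, 283, 268 and 264 CPM in mcd1-1 in the same order. No mcd1-1 library was below a WT library, though the nearest, mcd1-1 D and WT A, were less than 1 CPM apart. The change was 0.11 ± 0.12 and was not called (edgeR adjusted p = 0.484), with 0.17 within A and B and 0.084 within C and D. It was called higher under library size alone (0.45, edgeR adjusted p = 0.0169), a scaling that moved the median of all genes to 0.33, so that BCY1 stood 0.12 above that median, as it did under TMM.

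Against TPK2, the log2 ratio of BCY1 per kb was 1.31, 1.10, 1.14 and 1.18 in WT (in the order A to D) and 1.51, 1.32, 1.35 and 1.29 in mcd1-1 in the same order. The group means were 1.18 ± 0.09 (SD, n = 4) in WT and 1.37 ± 0.10 in mcd1-1, and the ratios overlapped through WT A. The difference of 0.18 did not pass the 2-sided exact permutation test (p = 0.0571, adjusted p = 0.229 over 4 ratios).

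RIM15 encodes the kinase that carries low PKA and low nutrient signals into the quiescence programme. It was at 87.5, 95, 142 and 142 CPM in WT (in the order A to D) and at 234, 253, 330 and 312 CPM in the mcd1-1 libraries in the same order. The groups were well apart, and in each genotype C and D were higher than A and B. The log2 fold change was 1.28 ± 0.21 (edgeR adjusted p = 0.00175), with 1.42 within A and B and 1.22 within C and D. Leaving out any 1 library gave 1.16 to 1.40, with edgeR adjusted p-values of 0.00294 to 0.00666. RIM15 went from the lowest level per kb of the 9 genes in WT to above GIS1 and MSN2 in mcd1-1.

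YAK1 encodes a kinase of the DYRK family that PKA restrains and that opposes growth. It was at 181, 167, 275 and 249 CPM in WT (in the order A to D) and at 336, 419, 312 and 309 CPM in the mcd1-1 libraries in the same order. All mcd1-1 libraries were above all WT libraries, and WT A and B were lower than WT C and D. The change was 0.66 ± 0.20 (edgeR adjusted p = 0.0274), but 1.12 within A and B and 0.28 within C and D, and whether these differ was not tested. The call was lost without WT A (edgeR adjusted p = 0.0719), WT B (0.0734) or mcd1-1 B (0.0679). The model IRC9 overlaps YAK1 by 245 bp and the sources used here do not give the strand setting of the counting, so reads of the overlap are uncertain.

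The 300 bases before the start codon were read from the RefSeq genome, build R64, in which all 9 genes have the coordinates of the table. They were searched on both strands for the stress response element (AGGGG), for the post-diauxic shift element that Gis1 binds (TAAGGGAT or TTAGGGAT) and for a heat-shock element of 3 units (GAANNTTCNNGAA). Of 6001 such windows of protein-coding nuclear genes, 22.2% held the stress element, 1.63% the post-diauxic element and 0.867% the heat-shock element. Among the 9 genes only YAK1 and TPK2 held the stress element and none held the other motifs. YAK1 had 3 matches, at 249, 222 and 206 bases before the start codon, a count of 3 or more being found in 0.55% of windows. TPK2 had 1 at 280 bases, and RPH1, the paralog of GIS1, had 1 at 126 bases. The windows of YAK1, which held the most matches, and of RIM15 and HSF1, which also rose and held none, are shown 5′ to 3′ on the strand of the gene, with stress elements in capitals. The YAK1 window is chrX:150391-150690 (minus strand), that of RIM15 is chrVI:74428-74727 (minus strand) and that of HSF1 is chrVII:368453-368752 (plus strand).
YAK1: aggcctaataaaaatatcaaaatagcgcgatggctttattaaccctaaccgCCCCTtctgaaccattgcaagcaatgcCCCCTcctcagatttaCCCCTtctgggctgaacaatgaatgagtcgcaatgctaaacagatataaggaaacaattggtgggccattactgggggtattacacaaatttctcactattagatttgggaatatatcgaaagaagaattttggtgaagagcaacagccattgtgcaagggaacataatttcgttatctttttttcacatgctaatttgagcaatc
RIM15: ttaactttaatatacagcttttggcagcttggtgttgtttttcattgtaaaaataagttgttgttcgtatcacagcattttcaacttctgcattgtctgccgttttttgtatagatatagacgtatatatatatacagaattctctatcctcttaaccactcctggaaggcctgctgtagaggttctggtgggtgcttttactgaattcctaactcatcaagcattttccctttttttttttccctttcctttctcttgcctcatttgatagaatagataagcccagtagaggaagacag
HSF1: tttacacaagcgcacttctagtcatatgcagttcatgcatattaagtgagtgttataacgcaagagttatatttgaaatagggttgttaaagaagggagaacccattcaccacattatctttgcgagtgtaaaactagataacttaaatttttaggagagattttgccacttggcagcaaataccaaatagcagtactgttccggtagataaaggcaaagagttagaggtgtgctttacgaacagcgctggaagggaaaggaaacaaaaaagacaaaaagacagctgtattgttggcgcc

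MSN2 and MSN4 encode paralogous zinc-finger activators of the general stress response. MSN2 was at 46.6, 53.7, 84 and 85.1 CPM in WT (in the order A to D) and at 82.6, 91.5, 76.6 and 78.6 CPM in the mcd1-1 libraries in the same order. The groups overlapped: WT A and B lay below all other libraries, and mcd1-1 C and D lay below WT C and D. MSN2 was not called (0.29 ± 0.21, edgeR adjusted p = 0.284). Within A and B it was called higher (0.79, edgeR adjusted p = 4.5e-04), whereas within C and D the value was -0.087 (edgeR adjusted p = 0.119). The fit within A and B called 2287 of 6572 genes higher and 2164 lower.

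MSN4 was at 127, 135, 165 and 141 CPM in WT (in the order A to D) and at 160, 125, 209 and 221 CPM in the mcd1-1 libraries in the same order. The groups overlapped through mcd1-1 A and B, and mcd1-1 C and D were the highest libraries. MSN4 was not called (0.33 ± 0.20, edgeR adjusted p = 0.203), nor in the fit blocked by letter (0.30, edgeR adjusted p = 0.0935). With the 2 lettered sets as a block it was called higher (0.31, edgeR adjusted p = 0.0403), in a fit that called 2207 of 6558 genes higher and 2241 lower. Its log2 fold change was 0.12 within A and B and 0.53 within C and D, the latter called higher (edgeR adjusted p = 2.7e-04). The fit within C and D called 2549 of 6564 genes higher and 2436 lower. The paralogs were thus called higher in different sets, in fits that called most genes tested.

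Per kb, MSN4 mRNA exceeded MSN2 mRNA in every library. The log2 ratio of MSN4 to MSN2 was 1.61, 1.49, 1.13 and 0.89 in WT (in the order A to D) and 1.11, 0.61, 1.61 and 1.65 in mcd1-1 in the same order. The group means of 1.28 ± 0.33 and 1.25 ± 0.49 (SD, n = 4) differed by -0.04, which the 2-sided exact permutation test did not call (p = 0.943, adjusted p = 0.943 over 4 ratios). The mean hid opposite differences: -0.69 between the A and B libraries and 0.62 between the C and D libraries. These differences between sets were not tested.

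**Figure D2:**
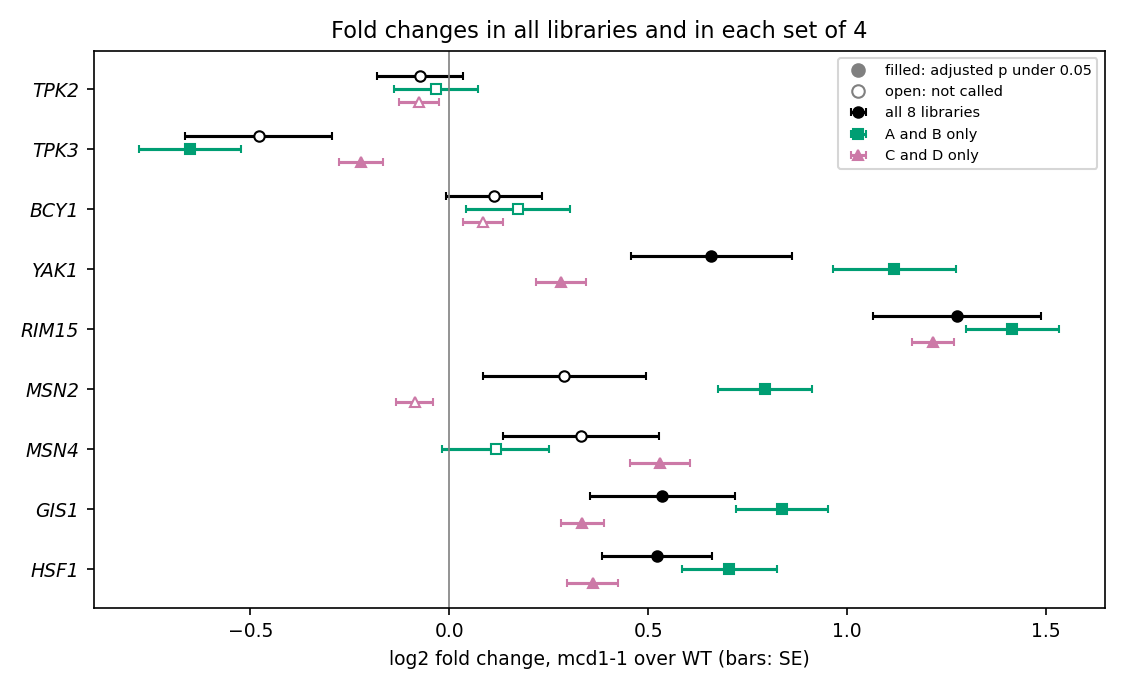
Log2 fold change of mcd1-1 over WT (points) with its SE (bars) for the 9 regulators in all 8 libraries, in A and B only and in C and D only; filled points passed an adjusted p of 0.05. RIM15, GIS1, YAK1 and HSF1 are filled and positive in all 3 fits, whereas MSN2 is 0.79 in A and B and -0.087 in C and D. The fits within a single set called most genes tested, higher or lower.

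GIS1 encodes the zinc-finger factor through which Rim15 acts on post-diauxic genes. It was at 54.5, 61.9, 85.5 and 93.8 CPM in WT (in the order A to D) and at 98.4, 110, 111 and 110 CPM in the mcd1-1 libraries in the same order. The groups did not overlap, but mcd1-1 A and WT D were less than 5 CPM apart. The change was 0.54 ± 0.18 (edgeR adjusted p = 0.0410), with 0.84 within A and B and 0.33 within C and D. Of the 4 calls it was the least secure: leaving out WT A, WT B or any 1 mcd1-1 library gave edgeR adjusted p-values of 0.0539 to 0.107.

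RPH1, the paralog of GIS1 and not one of the 9, encodes a histone demethylase and repressor. It was at 52.8, 51.2, 88.2 and 96 CPM in WT (in the order A to D) and at 152, 198, 110 and 108 CPM in the mcd1-1 libraries in the same order. All mcd1-1 libraries were higher (0.98 ± 0.28, edgeR adjusted p = 0.0199). The fold between set means was 3.37 for A and B and 1.18 for C and D. The log2 ratio of RPH1 to GIS1 was 0.11 ± 0.15 (SD, n = 4) in WT and 0.53 ± 0.45 in mcd1-1, and the difference of 0.42 was not called (2-sided exact permutation test, p = 0.229, adjusted p = 0.305 over 4 ratios).

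**Figure D3:**
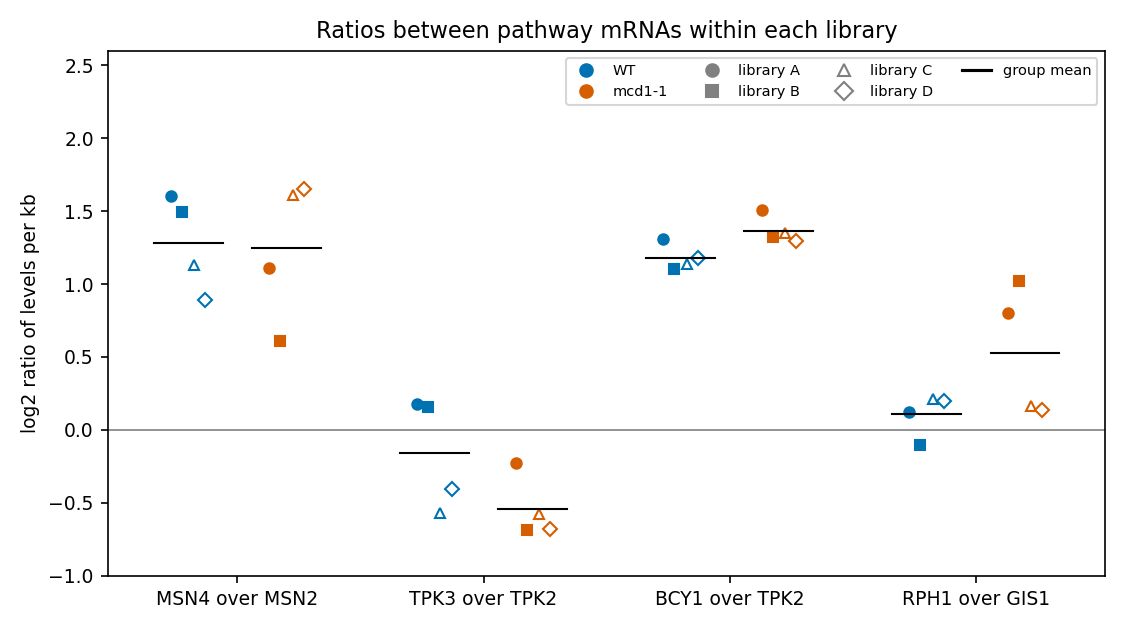
Log2 ratios of levels per kb within each of the 4 WT and 4 mcd1-1 libraries for 4 pairs of genes, with filled symbols for A and B, open symbols for C and D and lines for the group means. TPK3 over TPK2 is above 0 in WT A and B only, and MSN4 over MSN2 is lower in mcd1-1 than in WT for A and B and higher for C and D.

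HSF1 encodes the heat-shock factor. It was at 129, 121, 123 and 142 CPM in WT (in the order A to D) and at 190, 219, 165 and 167 CPM in the mcd1-1 libraries in the same order. The groups did not overlap, and unlike MSN2, GIS1 and YAK1 its WT libraries A and B did not both lie below WT C and D. The change was 0.52 ± 0.14 (edgeR adjusted p = 0.0151), with 0.70 within A and B and 0.36 within C and D. Leaving out any 1 library kept the call, with edgeR adjusted p-values of 0.0183 to 0.0464. The models YGL074C and YGL072C overlap HSF1 by at most 252 bp, and reads there are uncertain for want of the strand setting.

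Per kb of gene model the order of the 9 genes in WT was BCY1 (205 CPM per kb), TPK2 (90.5), YAK1 (89.9), TPK3 (82.7), MSN4 (75.1), HSF1 (51.5), MSN2 (31.8), GIS1 (27.5) and RIM15 (21.9). BCY1 was above every other library value, while TPK2, YAK1, TPK3 and MSN4 overlapped their neighbours in that order, as did MSN2, GIS1 and RIM15, and HSF1 stood clear of MSN4 and MSN2. In mcd1-1 the order was BCY1 (222 CPM per kb), YAK1 (142), MSN4 (94.4), TPK2 (86), HSF1 (74), TPK3 (59.3), RIM15 (53.1), GIS1 (39.9) and MSN2 (38.9). There YAK1 stood clear of both neighbours and RIM15 stood clear of GIS1. In WT, BCY1 ranked above 82.3% of all genes tested in level per kb and RIM15 above 18.8%.

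**Figure D4:**
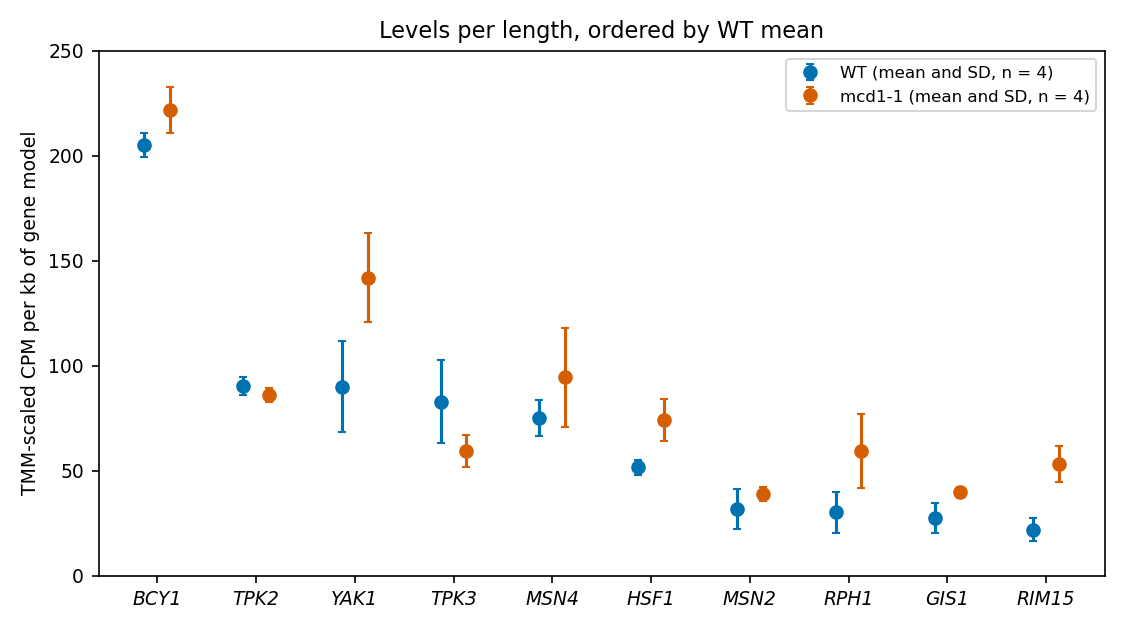
TMM-scaled CPM per kb of gene model (mean and SD, n = 4) of the 9 regulators and of RPH1 in WT and mcd1-1, ordered by the WT mean. BCY1 leads in both groups (205 and 222 CPM per kb), and YAK1 moves from 89.9 to 142.

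Genes with the most similar pattern over the 8 libraries were taken by Pearson's r of log2 CPM among 6036 to 6038 genes of at least 10 mean CPM; these values describe libraries that share genotype and lettered set. Nearest to RIM15 were the flocculin gene FLO10 (r = 0.998) and GAS2, a cell wall gene of sporulation (0.997). Nearest to GIS1 were TAF12 (0.996), a subunit of TFIID and SAGA, and the kinesin gene KIP1 (0.994). Nearest to YAK1 were IRC23 and the methionine permease gene MUP3 (both 0.993). MSN2 was closest to GAL11, a Mediator subunit gene (0.985), and to GAL80, the repressor of galactose genes (0.984), whereas MSN4 was closest to YBR139W (0.976) and the glucanase gene EXG2 (0.951). TPK3 was closest to EMC5 (0.995) and GPN3 (0.993), HSF1 to the repair gene RAD14 (0.989) and to CSR2 (0.986), and BCY1 to YGR130C (0.969) and YPL247C (0.958). TPK2 had no gene above 0.859, the value for BNA3, followed by PUS6 (0.84).

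Among the 9 themselves, over the same 8 libraries, the highest r was 0.933 for RIM15 and GIS1, then 0.907 for YAK1 and GIS1 and 0.905 for MSN2 and GIS1. TPK3 ran the other way, with r = -0.945 against GIS1 and -0.888 against RIM15. MSN2 and MSN4 had r = 0.326. These values too describe libraries that share genotype and lettered set, and genes outside the 9 reached higher r with RIM15 and GIS1, as given above.

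Upstream of PKA, 3 of 16 genes of the Ras and cAMP steps were higher and 2 were lower, with a median log2 fold change of 0.09. The counts of this and the following lists stand beside 20.7% of all genes called higher and 19.7% lower, or 29.4% and 30.2% in the fit blocked by letter, and the shares of the Ras and cAMP genes did not exceed those of all genes in the fit with group alone. Both RAS genes, which encode the GTPases that activate adenylate cyclase, fell. RAS1 went from 140 ± 5.75 to 65.2 ± 10.3 CPM (mean ± SD, n = 4; -1.10 ± 0.14, edgeR adjusted p = 5.2e-04) and RAS2 from 364 ± 73.3 to 203 ± 51.8 CPM (-0.84 ± 0.22, edgeR adjusted p = 0.0147). GPR1, the glucose receptor gene, rose by 0.63 ± 0.18 on the log2 scale, ERF2, for a palmitoyltransferase of Ras, by 0.62 ± 0.14, and PDE1, a cyclic AMP phosphodiesterase gene, by 0.41 ± 0.14. CYR1, the adenylate cyclase gene (0.32 ± 0.18), CDC25, for the Ras exchange factor (0.47 ± 0.25), and IRA1 (0.25 ± 0.38) and IRA2 (0.06 ± 0.26), for Ras inhibitors, were not called. In the fit blocked by letter the counts were 6 and 4. GPR1 was not called without WT A, WT B, mcd1-1 C or mcd1-1 D, at edgeR adjusted p-values of 0.0553 to 0.0597. PDE1 was not called without any 1 WT library or mcd1-1 B (0.0527 to 0.0948) or with TMM without ribosomal protein genes (0.0517), and RAS2 was not called under library size alone (-0.50, edgeR adjusted p = 0.0935).

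Of 19 genes around Rim15, 2 were higher and 2 lower, shares below those of all genes, with a median of 0.06. The kinase genes PKH1 (0.79 ± 0.10, edgeR adjusted p = 5.2e-04) and PKH2 (0.66 ± 0.21) rose. TPD3, the scaffold subunit of protein phosphatase 2A (-0.50 ± 0.16), and PHO85, a cyclin-dependent kinase that holds Rim15 in the cytoplasm (-0.54 ± 0.18), fell. The direct Rim15 substrates IGO1 (-0.14 ± 0.27) and IGO2 (-0.63 ± 0.26) and the kinase SCH9 (0.62 ± 0.35) were not called. In the fit blocked by letter the counts were 5 and 3. Calls were lost for PKH2 without WT A, WT B or mcd1-1 B, C or D, for TPD3 without WT A, B or C or mcd1-1 A, B or C, and for PHO85 without WT A, WT B or any 1 mcd1-1 library, at edgeR adjusted p-values of 0.0598 to 0.119. TPD3 and PHO85 were also not called under upper-quartile scaling (0.0603 and 0.128) and library size alone (0.385 and 0.383), and PHO85 not with the filter of 10 CPM in 4 libraries (0.0569).

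Of 18 regulators of Msn2, Msn4, Hsf1 and Yak1, 2 were higher and 2 lower (median -0.12), and 2 and 5 in the fit blocked by letter. CRF1, a corepressor of ribosomal protein genes that Yak1 phosphorylates, rose from 19.9 ± 7.85 to 47.7 ± 6.74 CPM (1.26 ± 0.27), and PSR2, for a phosphatase that acts on Msn2, rose by 0.76 ± 0.18 on the log2 scale. SNF4, a subunit of the Snf1 kinase (-0.93 ± 0.17), and the kinase HOG1 (-0.52 ± 0.14) fell. HOG1 was not called without mcd1-1 C (edgeR adjusted p = 0.0540) or under library size alone (0.259).

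Other stress transcription factors gave 7 higher and 2 lower of 21 (median 0.07). RPN4, the activator of proteasome genes, rose by 2.09 ± 0.26 on the log2 scale, XBP1, a stress-induced repressor, by 2.11 ± 0.32, USV1 by 1.83 ± 0.22 and YAP6 by 1.00 ± 0.15. The 2 lower were CRZ1 (-1.02 ± 0.25, edgeR adjusted p = 0.0106) and COM2 (-0.73 ± 0.20, edgeR adjusted p = 0.0188). Only 1 gene of this list was called lower without mcd1-1 A, without mcd1-1 B or under library size alone. XBP1 was at 41 to 50.7 CPM in WT, at 270 and 285 CPM in mcd1-1 A and B and at 126 and 113 CPM in mcd1-1 C and D. Of 11 growth and filamentation factors under PKA, 3 rose and 1 fell (median 0.31), and 4 and 3 with the block. ADR1, an activator of glucose-repressed genes that PKA inhibits, went from 58.3 ± 13.5 to 295 ± 54.9 CPM (2.34 ± 0.21, edgeR adjusted p = 9.9e-05). RGT1, a glucose-regulated repressor (1.11 ± 0.26), and IFH1, a coactivator of ribosomal protein genes (1.26 ± 0.43), rose, and MGA1 fell by 1.19 ± 0.35 on the log2 scale. IFH1 was at 69.5 and 77.9 CPM in WT A and B but at 242 and 267 CPM in WT C and D, and its call was lost without WT A, WT B or any 1 mcd1-1 library (edgeR adjusted p = 0.0673 to 0.0813); that of MGA1 was lost without WT C, WT D, mcd1-1 A or mcd1-1 B (0.054 to 0.0818) and under library size alone (0.0588).

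Among genes that Msn2 and Msn4 activate, 24 of 40 were higher, with a median of 1.02. None was called lower by edgeR, DESeq2 or limma-voom, or at an unadjusted p under 0.05 in edgeR, but in the fit blocked by letter 31 were higher and 1 lower. HSP26 (3.88 ± 0.47) and HSP12 (3.87 ± 0.48), which encode small heat-shock proteins, the glycogen debranching gene GDB1 (1.98 ± 0.20) and the reductase gene GCY1 (1.32 ± 0.12) had the smallest p-values. The summed level of the 40 genes was 7345 to 11030 CPM in WT, 21860 and 23360 CPM in mcd1-1 A and B and 13080 and 12530 CPM in mcd1-1 C and D. In both genotypes A and B were above C and D. The stress element was in 32 of these 40 promoters, a feature by which such genes are often named as targets. The list was chosen with earlier results of these data known, so its counts are a description and not an independent test.

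Of 18 post-diauxic and stationary-phase genes, some of them also in the list of Msn2 and Msn4 targets, 16 were higher (median 2.33). None was called lower by edgeR, DESeq2 or limma-voom, or at an unadjusted p under 0.05 in edgeR, but 1 was called lower in A and B only. SSA3, the Hsp70 gene classically driven through the post-diauxic element, was at 26 to 36.8 CPM in WT and at 740, 1289, 565 and 422 CPM in mcd1-1 A to D, and MOH1 rose by 2.24 ± 0.23 on the log2 scale. The summed level was 1551 to 2142 CPM in WT and 3615 to 7406 CPM in mcd1-1. The post-diauxic element was in only 2 of these 18 promoters and the stress element in 6, beside 1.63% and 22.2% of all windows. This list too was chosen with earlier results known and shares genes with the one before, so the 2 counts are not independent.

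Among 19 chaperone genes under Hsf1, 1 was higher and 3 lower, with a median of 0.29, and the heat-shock element was in 8 of their promoters. HSP82, for the inducible Hsp90, was higher (1.00 ± 0.33, edgeR adjusted p = 0.0363), whereas HSC82, for the constitutive Hsp90 (-0.71 ± 0.15), and the co-chaperone genes YDJ1 (-0.55 ± 0.14) and HCH1 (-0.49 ± 0.16) fell. The HSP82 groups overlapped, since mcd1-1 D (1160 CPM) lay below WT A (1194 CPM), and its call was lost without WT C, WT D, mcd1-1 A or mcd1-1 B (edgeR adjusted p = 0.0649 to 0.0826). In the fit blocked by letter 8 chaperone genes rose and 5 fell, and in DESeq2 the counts were 4 and 3. The falls of HSC82, YDJ1 and HCH1 were not called under library size alone (edgeR adjusted p = 0.0562, 0.235 and 0.436), nor were those of YDJ1 and HCH1 under upper-quartile scaling (0.0535 and 0.107). That of HCH1 was also lost without WT A, WT B or any 1 mcd1-1 library (0.0608 to 0.0991).

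**Figure D5:**
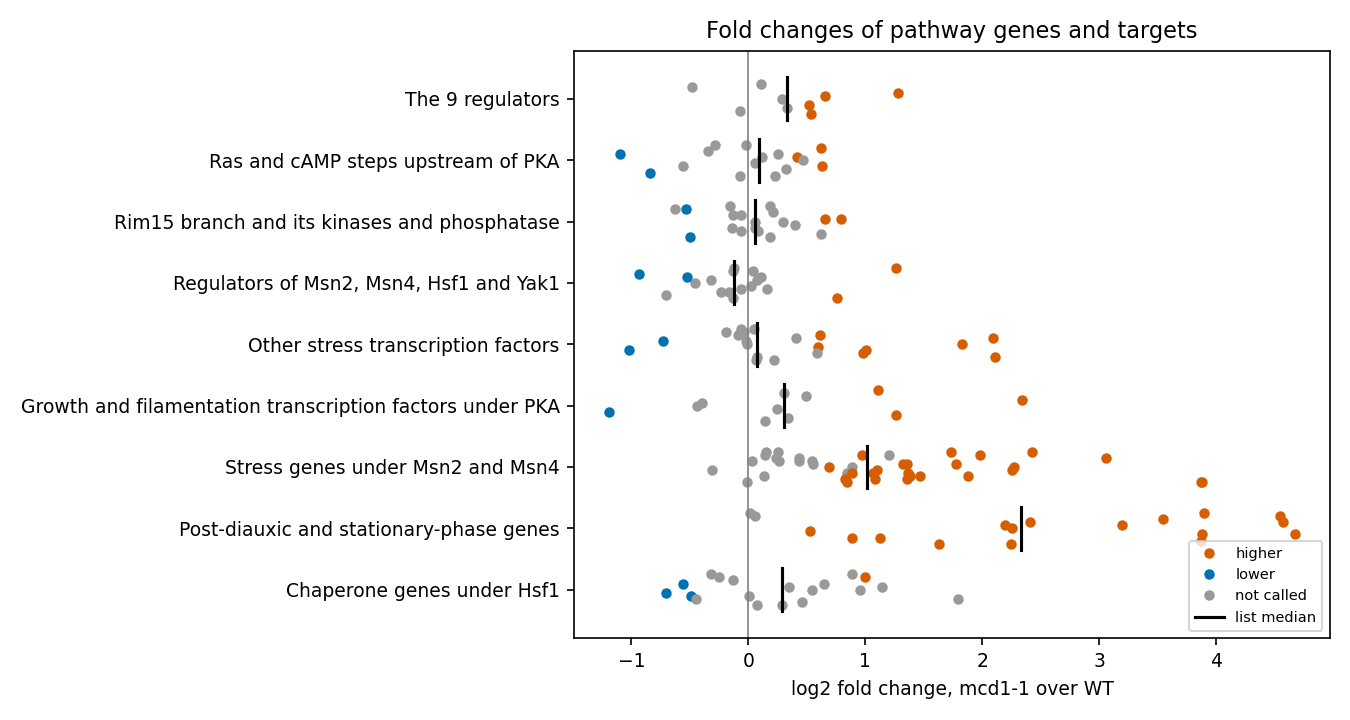
Log2 fold change of mcd1-1 over WT for each tested gene of the 9 regulators and of 8 pathway and target lists, coloured by call, with black bars for list medians. The regulators have a median of 0.33, the Msn2 and Msn4 targets one of 1.02 and the Hsf1 chaperones one of 0.29.

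Markers of mating type were also read, since the strain is of one mating type. None of 6 a-cell genes was called by edgeR or limma-voom, where 1 was lower at an unadjusted p under 0.05 in edgeR and in DESeq2, and in the fit blocked by letter 2 were higher and 3 lower. MFA2, a gene for the a-factor pheromone (-0.69 ± 0.35), STE6, for its exporter (-0.53 ± 0.29), and BAR1, for a protease that degrades alpha-factor (-0.42 ± 0.18), were the 3 called lower with the block (edgeR adjusted p = 0.00587, 0.0101 and 0.0430). STE2, the alpha-factor receptor gene, was at -0.41 ± 0.21 and was not called with group alone or with the letter block. With the lettered sets as a block STE2 was called lower (-0.44, edgeR adjusted p = 0.0487). That fit called 4 of the 6 a-cell genes lower and 2 higher, beside 2241 and 2207 of 6558 genes. The 2 called higher with the letter block were the rest of the list, MFA1 and ASG7, so the a-cell genes did not move in a single direction. The 3 alpha-cell genes found, STE3 (1.90 ± 0.18), SAG1 (1.57 ± 0.20) and AFB1 (0.45 ± 0.13), were higher in mcd1-1, at a summed 65.4 to 71.5 CPM in WT and 139 to 181 CPM in mcd1-1, against 957 to 1138 and 648 to 930 CPM for the a-cell genes. AFB1 was not called without WT C or WT D. Other models overlap STE3 (YKL177W) and AFB1 (YLR041W), and reads there are uncertain for want of the strand setting. STE3 was at only 4.44 to 5.78 CPM in WT. The part of the difference in these marker genes in the results above was not tested.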

How the data were processed

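The deposited values are raw read counts per gene model. Build R64, featureCounts 1.6.0, the aligner STAR 2.5.3a, Trim Galore 0.4.3, bcl2fastq 2.9 and Picard are listed in the submitters' processing notes. The sources used here give neither the strand setting nor the treatment of shared reads. Beside YAK1, HSF1, STE3 and AFB1, other models also overlap GPR1, PKH2, TPD3, IFH1 and GCY1, so reads of those overlaps are uncertain too. No stretch of at least 90% identity over 100 bp to another place in the genome was found for the 9 genes (blastn 2.17.0), and TPK2 and TPK3 share at most 14 identical bases in a row.

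Genes were kept by filterByExpr and tested in edgeR 4.0.16 (TMM, group as the only term, 2-sided quasi-likelihood F test, Benjamini-Hochberg adjustment over 6558 genes, threshold 0.05); standard errors follow from the F statistic. On simulated counts for the same 6558 genes, the fit called 99 of 100 genes set at a log2 change of 2 in either direction, 63 of 100 set at 1 and 9 of 6358 set at 0. The simulated libraries were independent and held no difference between lettered sets, so these rates may not hold for the real libraries. Ratios used counts plus 0.5, divided by gene length. Named genes were the 9, RPH1, the 4 genes of smallest p per list and the 2 nearest patterns per gene. PDE1, CRZ1, COM2, and the upstream genes and Rim15 branch genes not called were added after their values were seen. SDC25, FLO8 and the 2 alpha-factor genes matched no row by name, and 1 further gene the rule named is not reported here. The members and lists were chosen with earlier results of these data known. Same-lettered libraries deviated together from their group means (r = 0.638, 0.45, 0.658 and 0.614 for A to D). So did other letters within A and B (0.702 and 0.487) or C and D (0.609 and 0.657). By a rule of r over 0.1 in every same-lettered pair, the letter was used as a block in an alternative fit. Unlike letters within a set met that rule too, so these values cannot tell pairing by letter from a shared set. Alternatives were other scalings (RLE, upper quartile, library size, TMM without ribosomal protein genes), no filter or 10 CPM in 4 libraries, DESeq2 1.42.0, limma-voom 3.58.1, a robust fit, the letter or the lettered sets as a block, each set alone and leaving out each library. A count of 0 would allow up to 3 counts, or 0.0513 to 0.134 CPM, for counting error only.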

Additional observations from a re-analysis of the deposited data

Results flagged for a closer look

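In 102 groups of 4 libraries, 3 had 1 library far from the others by Dixon's ratio of gap to range, where chance flags about 1 in 20. GIS1 in mcd1-1 A was at 98.4 CPM, below the 110 to 111 CPM of the other mcd1-1 libraries. TPK3 in mcd1-1 A was at 84.8 CPM, above the 64.4 to 67.6 CPM of the others, and this library alone kept the TPK3 groups from separating. SAG1, an alpha-cell gene, was at 105 CPM in mcd1-1 B, above 76.6 to 78.9 CPM in the others.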

How the results depend on the processing

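RIM15 and HSF1 kept their calls in all alternatives. The number of the 9 genes called higher was 7 under library size alone and 2 to 4 without 1 library (2 without WT A, WT B or mcd1-1 B); the number called lower was 1 in DESeq2, with the replicate block, with the lettered sets as a block, in A and B only and in C and D only, and 0 to 1 without 1 library (TPK3 each time). Under library size alone MSN2 (0.63), MSN4 (0.66) and BCY1 (0.45) were called higher and TPK2 turned positive (0.27), as under upper-quartile scaling (0.063); these scalings moved the median of all genes to 0.33 and 0.13, and relative to it TPK2 was at -0.06 in both. MSN2 was 0.79 in A and B only and -0.087 in C and D only, and MSN4 was called with the sets as a block (0.31) and in C and D only (0.53). TPK3 was called lower in DESeq2 (-0.50), with the replicate block (-0.46), with the sets as a block (-0.45), in A and B only (-0.65) and in C and D only (-0.22), and spanned -0.58 to -0.36 without 1 library. GIS1 spanned 0.41 to 0.67 and YAK1 0.55 to 0.79 without 1 library, with calls lost as given above. Over all genes, the higher and lower counts were 1359 and 1291, but 2460 and 550 under library size alone (81.7% of calls higher, 65.5% under upper-quartile scaling, 51.3% in the fit used), 2207 and 2241 with the sets as a block, 2287 and 2164 in A and B only and 2549 and 2436 in C and D only; 1978 fell with the replicate block, and 859 to 1249 without 1 library, the lowest without mcd1-1 B. The MSN4 to MSN2 difference was -0.69 in A and B only and 0.62 in C and D only and spanned -0.17 to 0.18 without 1 library; that of RPH1 to GIS1 was 0.90 in A and B only and -0.057 in C and D only. Of the lists, 24 Msn2 and Msn4 targets rose in the fit used and 24 to 34 over all alternatives, and 16 and 15 to 17 of the post-diauxic genes. In each of these lists 0 to 1 genes were called lower. Elsewhere the higher and lower counts spanned 1 to 8 and 1 to 6 (Ras and cAMP), 1 to 9 and 0 to 5 (Rim15), 2 to 3 and 1 to 10 (regulators of Msn2, Msn4, Hsf1 and Yak1), 5 to 12 and 1 to 8 (other stress factors), 2 to 7 and 0 to 3 (growth factors), 0 to 9 and 0 to 6 (Hsf1 chaperones) and 0 to 2 and 0 to 4 (a-cell genes), with most of the high values in the blocked fits, the single sets or library size alone. STE2 was 0.056 in C and D only, against the opposite sign with all libraries. The ratio tests cannot reach 0.05 within a set or by sign flips over 4 letters, and none was run without 1 library. These are therefore values with no test. The cause of these changes was not tested. Depth limits none of the 9 genes.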
